A study of Arabidopsis thaliana with 18 samples.

Results

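SA (salicylic acid), a plant hormone that acts in defence, was compared with its carrier in 6 of the 18 arrays of a series on Cvi-1, a natural accession of Arabidopsis thaliana. The 6 arrays were chosen by the serial number in their titles, labels as deposited. SA arrays 28, 29 and 30 came from plants given SA at 0.30 mM with silwet at 0.02%, and silwet arrays 19, 20 and 21 from plants given only silwet at 0.02%. Silwet is an organosilicone surfactant that helps a solution wet the leaf, and both treatments contain it. Arrays 28 and 19 carry replicate number 1, arrays 29 and 20 number 2, and arrays 30 and 21 number 3.

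The remaining 12 arrays form 2 further sets of 6, with the middle serials (SA 31 to 33, silwet 22 to 24) and the highest (SA 34 to 36, silwet 25 to 27). The labels give no tissue, age, number of plants or time of harvest. Nothing in the labels says that the arrays of a group are separate plants. The p-values then reflect only how these samples scatter, which may be technical. The study is known to have harvested plants at several times after treatment. No label ties a time to a serial, so whether the 3 serial blocks are the sampling times could not be settled from the sources used here, and the term block is kept.

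SA accumulates in leaves attacked by biotrophic pathogens and acts through the receptor and coactivator NPR1, which works with TGA transcription factors at the promoters of defence genes. Leaves that receive SA switch on conjugating enzymes that store it as sugar esters and glucosides, WRKY transcription factors and secreted defence proteins. Many genes of growth are known to be lower in tissue with high SA. A surfactant can itself act on leaves, and silwet alone serves as the control.

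Each array gave a MAS5 signal for 22810 probe sets, scaled by the authors to a common mean. Median signal was 33.1 to 35.8 on the 3 SA arrays, 33.3 to 38.7 on the 3 silwet arrays and 31.7 to 37.9 on the other 12. Between 36.2% and 38.4% of probe sets on the SA arrays had a signal under 16, against 34.7% to 37.7% on the silwet arrays. For the ubiquitin control probe sets the 3′ to 5′ ratio, a measure of RNA integrity, was 1.34 to 1.67 in SA and 1.25 to 1.93 in silwet. Signals of the root-hair expansin genes EXPA7 and EXPA18 did not exceed 16.3 on any array, and the photosynthesis gene RCA had at least 1760 throughout. The number of arrays limits the precision of what follows.

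In the replicate 2 pair the SA response genes ran against their labels, and this bears on every result. The library labelled SA in that pair, array 29, had low levels of these genes, and the library labelled silwet, array 20, had high levels. In replicates 1 and 3 the SA array was the high one. The cause was not tested, both arrays are kept under their deposited labels, and the main results are given with and without them.

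UGT76B1 (AT3G11340), which encodes a glycosyltransferase that conjugates SA and the related N-hydroxypipecolic acid, had signals of 1238, 41.2 and 1552 on SA arrays 28, 29 and 30, against 39.3, 1540 and 77.6 on silwet arrays 19, 20 and 21. Arrays 28, 30 and 20 were high and arrays 29, 19 and 21 low, so the groups overlapped, and the other 12 arrays read 10.3 to 76.8. Mean signal was 944 ± 797 in SA and 552 ± 856 in silwet (SD, n = 3 each). The log2 difference was 1.36 (SE 1.74), with a 95% interval of -2.70 to 5.42, and limma with Benjamini-Hochberg adjustment did not call it (adjusted p = 1).

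GRX480 (AT1G28480), a glutaredoxin that binds TGA factors, had signals of 613, 167 and 701 on SA arrays 28, 29 and 30, against 102, 733 and 192 on silwet arrays 19, 20 and 21. Arrays 28, 30 and 20 were again the high ones, and array 20 read above every SA array. Its log2 difference was 0.78 (SE 0.80). AT5G03350, also on the SA response list, had 1308, 122 and 1418 in SA, against 147, 1693 and 115 in silwet, a log2 difference of 0.99 (SE 1.26).

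WRKY53 (AT4G23810), a WRKY transcription factor known from leaf senescence and basal resistance, had 715, 146 and 511 in SA, against 159, 442.7 and 232 in silwet. WRKY6 (AT1G62300), a WRKY factor linked to senescence and phosphate use, had 179, 124 and 239 in SA, against 88.3, 320 and 122 in silwet. In both genes array 29 fell among the low arrays and array 20 among the high ones. The log2 differences were 0.57 (SE 0.63) for WRKY53 and 0.21 (SE 0.49) for WRKY6.

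**Figure D1:**
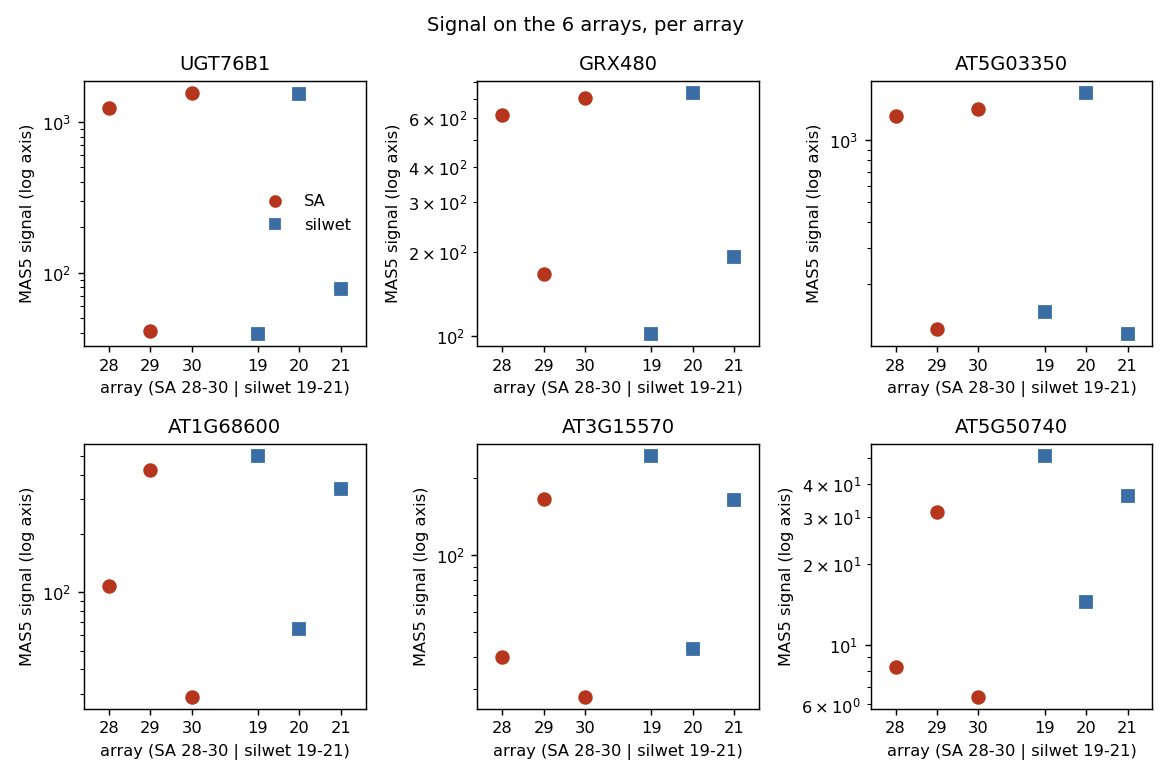
MAS5 signal (log axis) of 6 genes on the 3 SA arrays (red circles) and the 3 silwet arrays (blue squares), 1 point per array. UGT76B1, GRX480 and AT5G03350 are high on arrays 28, 30 and 20, and AT1G68600, AT3G15570 and AT5G50740 are low on those 3 arrays.

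These 5 were the tested members of an SA response list of 28 genes, of which 7 had a probe set of their own in the annotation. BSMT1 and UGT74F1, which methylate SA and attach glucose to it, lay below the signal filter. Limma called 0 of the 5, against 0% of the 13648 probe sets tested. The list's median log2 difference was 0.78, against -0.04 over all tested probe sets. All 5 were at least 2-fold lower on array 29 than on array 20, with a median of -2.13 on the log2 scale, against medians of 2.59 and 1.87 in the pairs of replicates 1 and 3.

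Over all 13648 probe sets limma called 0, with 40 at an unadjusted p under 0.05 (18 higher and 22 lower in SA) and a median SE of 0.28. The smallest adjusted p was 0.0805, for a probe set that the annotation gives no single gene. It had signals of 9.78, 10.2 and 10.6 in SA, against 81.7, 69.6 and 56.7 in silwet, a log2 difference of -2.75 (SE 0.24). On the other 12 arrays it spanned 23.5 to 451, so its low values in SA lay below all other arrays. Those SA values were all under 16, where signal is the least precise. Without an intensity trend in the variance model limma called it lower (adjusted p = 0.0421).

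The count depended on arrays 20 and 29. Without array 20 limma had 352 probe sets under that p, and without array 29 it had 828, in both cases with 0 called. Leaving out any one of the other 4 arrays gave 15 to 33. Without both arrays of replicate 2 the number was 3334, of which 1426 were higher and 1908 lower in SA, against 13 without replicate 1 and 8 without replicate 3. With 2 arrays a side the smallest limma adjusted p was 0.0651, so 0 were called.

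**Figure D2:**
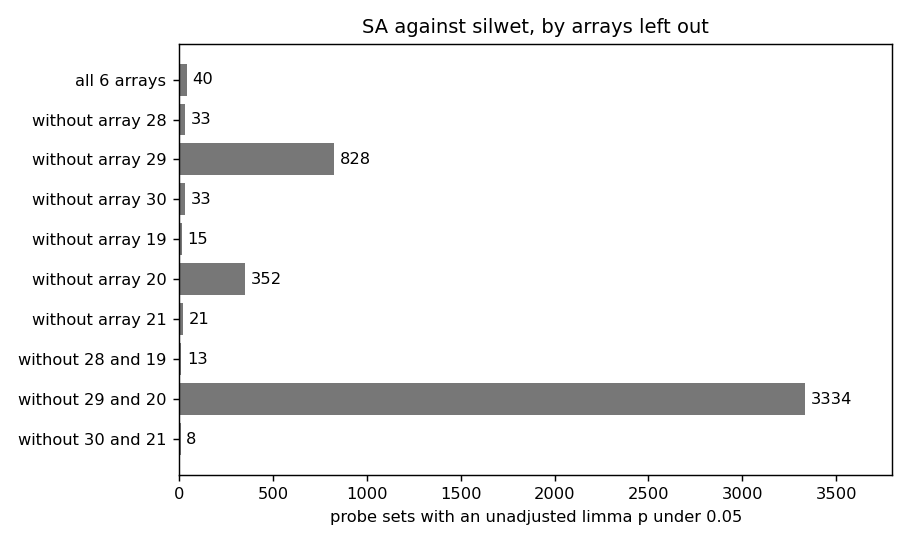
Number of probe sets with an unadjusted limma p under 0.05 for SA against silwet (x axis, linear from 0), by which of the 6 arrays were left out (rows). The bars for all 6 arrays and for leaving out arrays 28, 30, 19 or 21 stay at 40 or below, against 352 without array 20, 828 without array 29 and 3334 without both.

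In a 6-group model over the 18 arrays, which takes the spread from all groups, limma called 0 probe sets, and 121 had an unadjusted p under 0.05. Without array 20 it called 0, and 1512 had an unadjusted p under 0.05. Without array 29 it called 0, and 2227 had an unadjusted p under 0.05. Without both it called 2074, of which 810 (5.93% of those tested) were higher and 1264 (9.26%) lower in SA. With median centring of each array the split was 1060 higher and 657 lower, and with quantile normalization 836 and 1114. With the replicate number as a block it was 1179 and 1838. The 6-group models with arrays left out were added after the values had been seen. Arrays 20 and 29 were left out because their values ran against their labels, so the calls without them depend on the outcome that chose the arrays. They describe the remaining 4 arrays and are no test of the labelled comparison.

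Without both arrays the members of the SA response list were each called higher, 5 of 5, against 5.93% of all tested probe sets. With quantile normalization it was 4 of 5, against 836 of 13648, and WRKY6 missed the threshold (0.99, limma adjusted p = 0.0579). These genes are among those that ran against their labels on the arrays left out, so their calls are no independent support. The log2 difference of UGT76B1 was 4.65 (SE 0.64, limma adjusted p = 0.00179), a 25.1-fold difference. For AT5G03350 it was 3.39 (adjusted p = 0.00926), for GRX480 2.23 (adjusted p = 0.00453), for WRKY53 1.66 (adjusted p = 0.0233) and for WRKY6 0.99 (adjusted p = 0.0493). With only array 20 left out the differences were 2.96 for UGT76B1, 2.23 for AT5G03350, 1.57 for GRX480, 0.97 for WRKY53 and 0.75 for WRKY6. None of those passed.

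How far the reversal of replicate 2 reached was measured with probe sets chosen on the other 4 arrays. In both the replicate 1 and the replicate 3 pair, 496 probe sets (3.63% of those tested) were at least 2-fold higher in SA, and 473 (3.47%) at least 2-fold lower. Arrays 29 and 20 took no part in that choice. All 496 of the first set were lower on SA array 29 than on silwet array 20, against 42.1% of all tested probe sets, with a median log2 difference of -1.52, and 415 of them by at least 2-fold. Of the 473 in the second set 472 were higher on array 29 than on array 20, against 57.9% of all tested probe sets, with a median of 1.29, and 354 by at least 2-fold.

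Array 20 lay above both other silwet arrays in 485 of the 496 and below both in 465 of the 473. Array 29 lay below both other SA arrays in 488 of the 496 and above both in 468 of the 473. Of all 13648 tested probe sets, array 20 lay above both other silwet arrays in 3961 and below both in 6594. Array 29 lay below both other SA arrays in 4584 of the 13648 and above both in 5847. On a scale where the mean of arrays 19 and 21 is 0 and that of arrays 28 and 30 is 1, the median position of array 29 was -0.06 in the first set and -0.04 in the second. The median position of array 20 was 0.95 in the first set and 0.85 in the second. Over these probe sets each array lay near the mean of the other treatment's replicates 1 and 3. The median position was not particular to the 2 sets. Over all tested probe sets it was 0.87 for array 20 and -0.01 for array 29. The interquartile ranges there, 0.39 to 1.31 and -0.45 to 0.48, were wider than in either set.

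The sizes of the 2 sets depended on the scaling, and their behaviour in replicate 2 did so less. With median centring there were 720 probe sets higher and 292 lower in SA in both pairs, and array 29 ran the other way in 715 and 290 of them. With quantile normalization there were 538 and 391, and array 29 ran the other way in 534 and 389. Without both arrays, the median difference over all tested probe sets was -0.11 on the deposited scale. Of the probe sets called without arrays 20 and 29, 809 of the 810 higher ones and 1258 of the 1264 lower ones had the opposite sign in the replicate 2 pair.

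**Figure D3:**
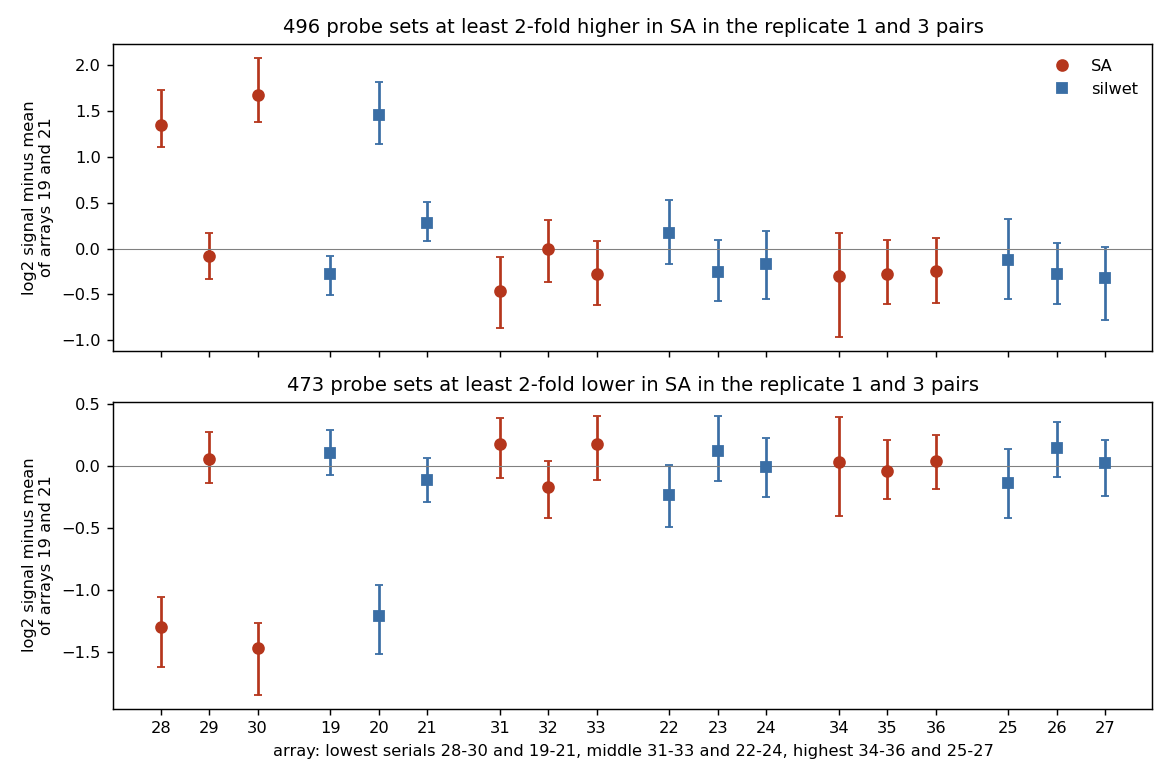
Median log2 signal relative to the mean of arrays 19 and 21 (points) with the interquartile range (bars) of the 496 probe sets higher and the 473 lower in SA in the replicate 1 and 3 pairs, on all 18 arrays, SA in red and silwet in blue. Arrays 28, 30 and 20 stand apart in both panels, and array 29 lies with arrays 19 and 21 and the other 12.

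Over the 13648 probe sets, whose values are not independent of each other, the SA minus silwet difference of replicate 1 correlated with that of replicate 3 at r = 0.76. The difference of replicate 2 correlated at -0.80 both with replicate 1 and with replicate 3, and its sign was shared in 20.9% and 20.8% of probe sets. In the middle serials the corresponding correlations of replicate 2 were -0.21 and -0.21, with 0.18 between replicates 1 and 3. In the highest serials they were 0.12 and 0.06, with 0.33 between replicates 1 and 3. Log2 signal of array 29 correlated best with array 19 (r = 0.967) and array 21 (r = 0.962), and with SA arrays 28 and 30 at 0.887 and 0.871. Array 20 correlated best with array 30 (r = 0.970) and array 28 (r = 0.961), and with silwet arrays 19 and 21 at 0.887 and 0.926.

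**Figure D4:**
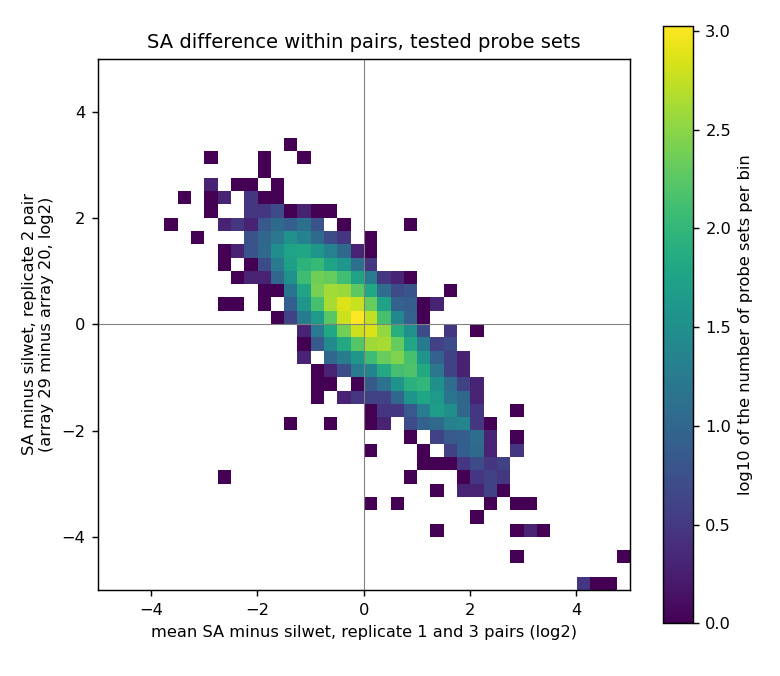
Mean SA minus silwet log2 difference of the replicate 1 and 3 pairs (x axis) against that of the replicate 2 pair (y axis) over the tested probe sets, with colour giving the log10 number of probe sets per bin. The cloud runs from the upper left to the lower right, so differences of one sign in replicates 1 and 3 go with the other sign in replicate 2.

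The first principal component of the 6 arrays held 61.6% of the variance. Scores were 29.9, -41.3 and 49.2 on SA arrays 28, 29 and 30, against -48.8, 32.8 and -21.8 on silwet arrays 19, 20 and 21. The 2 treatments overlapped on it, with means of 12.6 ± 47.7 in SA and -12.6 ± 41.6 in silwet (SD, n = 3; two-sided exact permutation test, p = 0.6, where the smallest possible is 0.1). The ubiquitin 3′ to 5′ ratio moved with these scores. It was 1.41 on array 28, 1.34 on array 30 and 1.25 on array 20, the 3 lowest of the 18 arrays, and 1.67 to 1.93 on arrays 29, 19 and 21. The GAPDH ratio did not separate these arrays. It was 1.05, 0.862 and 0.917 on arrays 28, 30 and 20, against 0.926, 1.02 and 0.867 on arrays 29, 19 and 21. The actin ratio went the other way, with 0.250, 0.204 and 0.219 against 0.156, 0.201 and 0.196 in the same order. The part of these ratios in the result was not tested.

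Genes furthest apart between arrays 28 and 30 and arrays 19 and 21 showed the reversal singly. These genes were chosen on those 4 arrays, so the values of arrays 29 and 20 are what the choice did not use. AT3G28510 had signals of 499, 9.61 and 483 on SA arrays 28, 29 and 30, against 18.7, 423 and 41.3 on silwet arrays 19, 20 and 21. AT3G13610 (F6'H1), the feruloyl-CoA hydroxylase of scopoletin synthesis, had 372.7, 1.74 and 225 in SA, against 7.5, 236 and 42.5 in silwet. Array 29 had the lowest signal of the 6 for both genes, and array 20 lay within or just below the range of arrays 28 and 30.

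AT4G22530 had 432.99, 91.1 and 595 in SA, against 75.3, 708 and 97.9 in silwet, and at most 69.7 on the other 12 arrays. AT1G02360 had 140, 18.9 and 153 in SA, against 22.7, 133 and 27.8 in silwet. AT5G44570 had 1018, 122 and 1320 in SA, against 89.7, 1187 and 227 in silwet. In each of these genes arrays 28, 30 and 20 all read above arrays 29, 19 and 21.

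AT5G46230 had 281, 37.6 and 201 in SA, against 24.1, 204 and 39.6 in silwet. AT1G08050 had 159, 24.1 and 219 in SA, against 22.9, 198 and 47 in silwet. CXE20, a carboxyesterase, had 88.7, 18 and 133 in SA, against 32, 108 and 8.59 in silwet. Without arrays 20 and 29, limma in the 6-group model called these 8 genes, UGT76B1 and AT5G03350 higher, with log2 differences of 2.51 (AT1G08050) to 4.65 (UGT76B1). All of them were picked for that same difference, so these calls are no separate support. Array 29 for AT3G28510, arrays 29 and 19 for AT3G13610 and array 21 for CXE20 read under 16, where signal is the least precise.

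The genes lowest in arrays 28 and 30 mirrored this. AT1G68600 had signals of 107, 425 and 29 on SA arrays 28, 29 and 30, against 504, 64.3 and 340.9 on silwet arrays 19, 20 and 21. AT3G15570 had 39.9, 165 and 28 in SA, against 244, 42.8 and 164 in silwet. AT5G50740 had 8.26, 31.4 and 6.41 in SA, against 50.9, 14.4 and 36.1 in silwet, and 34.4 to 58.9 on the other 12 arrays. For all 3 the low arrays were 28, 30 and 20, and array 29 read nearer to arrays 19 and 21.

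AT4G25780 had 11.2, 73.3 and 7.13 in SA, against 123, 11.1 and 32.1 in silwet. AT3G28270 had 123, 903 and 30.4 in SA, against 897, 98.8 and 240 in silwet. AT3G17640 had 2.78, 84.3 and 22.6 in SA, against 84.8, 25.5 and 54.8 in silwet. Array 28 was the lowest of the 6 only in the last of these, and arrays 28, 30 and 20 were the 3 lowest in each.

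AT1G60590 had 0.664, 53.6 and 16.1 in SA, against 38.8, 13.6 and 40.3 in silwet. AT3G15720 had 7.35, 96.5 and 9.34 in SA, against 38.2, 14.4 and 50.1 in silwet. AT1G48330 had 20.5, 71.9 and 12.5 in SA, against 80.9, 19.9 and 82.5 in silwet. Arrays 28, 30 and 20 were the 3 lowest in each of these. SHN3, an AP2-type factor of the SHINE clade that acts in cuticle formation, had 15.5, 15.8 and 1.91 in SA, against 40.4, 12.6 and 23.7 in silwet. SHN3 stood apart from the other 9, since array 29 read about the same as array 28. In the 6-group model without arrays 20 and 29 limma called 9 of these 10 lower, and AT1G48330 missed the threshold (adjusted p = 0.0753). The 10 were picked for that same difference, so these calls are no separate support either. With median centring AT3G28270 (adjusted p = 0.0616) and SHN3 (adjusted p = 0.0611) also missed it, and SHN3 missed it with quantile normalization (adjusted p = 0.0786). Only AT3G28270, AT1G68600 and AT3G15570 read above 16 on both array 28 and array 30, with log2 differences of -2.92, -2.90 and -2.58. The other 7 had a signal under 16 on at least 1 of these arrays, down to 0.664 for AT1G60590 on array 28. Detection calls were not used, so the order of these genes is not read. The sizes of their differences, where listed below as ranges over alternatives, are imprecise.

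Few probe sets kept the labelled treatments apart on all 6 arrays. In 94 (0.689%) the 3 SA arrays lay above the 3 silwet arrays, and in 212 (1.55%) they lay below. With median centring these were 179 and 171, and with quantile normalization 140 and 199. The genes named from these sets were picked for lying apart, and limma called none of them (adjusted p = 1 for each).

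SAG29 (SWEET15), a sugar transporter gene of senescing leaves, had signals of 17.6, 20.1 and 7.41 on SA arrays 28, 29 and 30, against 26.5, 69.4 and 32.3 on silwet arrays 19, 20 and 21. Its log2 difference was -1.50 (SE 0.51), with an interval of -2.68 to -0.32, and array 20 was the highest of the silwet arrays. On the other 12 arrays SAG29 spanned 9.66 to 486. IAA29, an auxin-response repressor gene, had 16, 15.5 and 15.7 in SA, against 19.9, 18.5 and 29 in silwet, a log2 difference of -0.48 (SE 0.27).

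The SA arrays lay above the silwet arrays for 3 chloroplast genome genes, the ATP synthase genes atpI and atpH and the photosystem I gene psaA. AtpI had 24.6, 21 and 34.6 in SA, against 10.8, 13.6 and 20.1 in silwet. AtpH had 238, 355 and 505 in SA, against 218, 231 and 180 in silwet. PsaA had 255, 298 and 525 in SA, against 166, 249 and 217 in silwet. In each the lowest SA array lay close above the highest silwet array. Their log2 differences were 0.86 (SE 0.34), 0.75 (SE 0.30) and 0.72 (SE 0.32), while the other 12 arrays spanned 68.1 to 1496 for atpH. Of the 65 chloroplast genome genes tested, these 3 had SA arrays above all silwet arrays, against 0.689% of all tested probe sets, and 0 had them below, against 1.55%. The family's median log2 difference was 0.06, and 53 of 65 were higher on array 29 than on array 20, against 57.9% of all tested probe sets.

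Among the others, AT2G37580 had 29.3, 24 and 16.8 in SA, against 15.2, 6.03 and 9.27 in silwet. AT2G44420 had 81, 57.2 and 54.7 in SA, against 29.5, 42 and 33.1 in silwet. AT2G42760 had 57.5, 67.8 and 56.1 in SA, against 40.6, 41.4 and 36 in silwet. The log2 differences of the 8 genes with SA above silwet were 0.59 (AT3G45830) to 1.26 (AT2G37580), and AT5G66290 lay between them at 0.70 (SE 0.24).

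On the lower side AT3G09860 had 39.3, 13.9 and 37.8 in SA, against 55.8, 48.1 and 64.5 in silwet. AT1G69210 had 23.1, 14.2 and 27.4 in SA, against 49.7, 39.1 and 38.3 in silwet. AT3G56270 had 14.3, 13.6 and 8.94 in SA, against 23.4, 18.7 and 27.1 in silwet. The 8 such genes had log2 differences of -0.71 (AT4G08230) to -1.50 (SAG29), with AT3G27340, AT1G33340 and AT1G19480 at -0.87 (SE 0.37), -0.75 (SE 0.31) and -0.74 (SE 0.24). MAS5 signal is the least precise at such low levels.

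The tested genes of SA synthesis and signalling and of pattern-triggered immunity were also high on arrays 28, 30 and 20, with smaller differences. SAG101 (AT5G14930), a lipase-like partner of EDS1 in immune signalling, had 45.7, 30.3 and 55.7 in SA, against 25.9, 44.8 and 27.8 in silwet, and was the only 1 of 19 genes of SA synthesis and signalling that was tested. BIK1, a receptor-like cytoplasmic kinase of pattern-triggered immunity, had 245, 194 and 355 in SA, against 162, 324 and 211 in silwet. EFR, the receptor for bacterial elongation factor Tu, had 54.9, 25.2 and 56.1 in SA, against 23.8, 50.9 and 36.5 in silwet. The log2 differences were 0.42 (SE 0.33) for SAG101, 0.20 (SE 0.34) for BIK1 and 0.27 (SE 0.41) for EFR, and 0 of the 3 were called.

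Without arrays 20 and 29, BIK1 was called higher (log2 difference 0.67, limma adjusted p = 0.0472), and SAG101 (0.91, adjusted p = 0.0799) and EFR (0.91, adjusted p = 0.0591) were not. These calls turned with the setting. BIK1 lost its call with quantile normalization (0.63, adjusted p = 0.0639). EFR gained one with median centring (1.06, adjusted p = 0.0266), with quantile normalization (1.03, adjusted p = 0.0281) and with the replicate block (adjusted p = 0.0119), and SAG101 with the block (adjusted p = 0.0489). The ER chaperone partner ERDJ3B (ATERDJ3B) had 924, 690 and 1042 in SA, against 491, 1063 and 585 in silwet, and the calreticulin CRT2 (CRT1b) had 1323, 1284 and 1036 in SA, against 984, 1465 and 910 in silwet. ERDJ3B was called higher without both arrays (0.87, limma adjusted p = 0.0167) and CRT2 was not (0.31, adjusted p = 0.472). GSTU25, a tau-class glutathione transferase from the list of detoxification genes, had 50.8, 40.9 and 49.4 in SA, against 27.4, 73.3 and 31.5 in silwet, with array 20 the highest of the 6 and a log2 difference of 0.23 (SE 0.39).

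AT3G01830 had 245, 88.5 and 341.2 in SA, against 49, 350 and 132 in silwet. AT1G10585 had 184, 181 and 485 in SA, against 49.3, 439 and 155 in silwet. AT2G25735 had 214, 143 and 521 in SA, against 81, 356 and 310 in silwet, and AT1G52200 had 1087, 598 and 1458 in SA, against 370, 1409 and 778 in silwet. Array 20 was above silwet arrays 19 and 21 in each, and array 29 was the lowest SA array. All 6 arrays read above the other 12, except array 19 for AT3G01830. None was called on the 6 arrays, or in the 6-group model without arrays 20 and 29. With the replicate block in that model AT3G01830 (limma adjusted p = 0.0403), AT1G10585 (adjusted p = 0.028) and AT1G52200 (adjusted p = 0.0116) were called higher, and AT3G01830 also with median centring (adjusted p = 0.048).

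The lectin genes did not share 1 pattern. AT3G16530 had 1209, 372.9 and 972 in SA, against 717, 982 and 478 in silwet, with array 29 the lowest of the 6. JAL34, a jacalin-related lectin, had 102, 344.8 and 243 in SA, against 81.8, 226 and 202 in silwet, and here array 29 was the highest of the 6 and array 28 among the lowest. The pair differences of JAL34 were 0.32, 0.61 and 0.27 for replicates 1, 2 and 3, and its log2 difference was 0.40 (SE 0.55).

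Jasmonate, growth and photosynthesis genes gave no call on the 6 arrays. THI2.1, a thionin gene that jasmonate induces, had 26.3, 212 and 42.3 in SA, against 74.6, 49.1 and 69.5 in silwet, with array 29 above all other arrays and the groups overlapping. EXPA8, an expansin that loosens cell walls, had 35.4, 108 and 40.2 in SA, against 98.1, 74.5 and 108 in silwet, a log2 difference of -0.79 (SE 0.44). EXPA4 had 82.5, 100 and 53.8 in SA, against 118, 76.3 and 81 in silwet. Of the 5 auxin and growth genes tested 0 were called on the 6 arrays or without arrays 20 and 29, against 15.2% of all tested probe sets in the second fit. GH3.3, an enzyme that conjugates auxin to amino acids, had 95.6, 39.9 and 206 in SA, against 26.6, 207 and 53.2 in silwet, with arrays 28, 30 and 20 high, and without arrays 20 and 29 its log2 difference was 1.90 (limma adjusted p = 0.141). With the replicate block GH3.3 was called higher (adjusted p = 0.0274) and EXPA8 lower (-1.45, adjusted p = 0.0285).

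RCA, which encodes Rubisco activase, had 2432, 2908 and 2171 in SA, against 3247, 2422 and 2498 in silwet. PRK, phosphoribulokinase of the Calvin cycle, had 1391, 2085 and 1167 in SA, against 2327, 1254 and 1596 in silwet, a log2 difference of -0.15 (SE 0.29). In PRK the low arrays were 28, 30 and 20, and without arrays 20 and 29 it was called lower (-0.60, limma adjusted p = 0.0384), a call that median centring ended (-0.45, adjusted p = 0.0977). The antenna gene LHCB4.1 differed by -0.09 (SE 0.16). Of the 3 photosynthesis genes tested 1 was called lower without both arrays, against 9.26% of all tested probe sets. With median centring it was 0, against 657 of 13648.

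The clock gene GI had 353, 468 and 185 in SA, against 529, 286 and 308 in silwet. COR15B and COR47, cold-regulated genes, had log2 differences of -0.18 (SE 0.28) and -0.10 (SE 0.25), and the dehydrin gene LTI30 one of -0.18 (SE 0.30). DI21 had 73.2, 34.2 and 39.3 in SA, against 76.6, 46.5 and 35 in silwet. Of the 5 abscisic acid and cold genes tested, 0 were called on the 6 arrays or without arrays 20 and 29, against 15.2% of all tested probe sets in the second fit, and COR15B was called lower with the replicate block (-0.59, limma adjusted p = 0.0181). Of the 5, 4 were higher on array 29 than on array 20, against 57.9% of all tested probe sets.

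The 4 reference genes, used elsewhere as controls because they vary little, differed by -0.12 (AT2G28390) to 0.05 (AT4G34270) on the log2 scale. AT2G28390 had 131, 139 and 112 in SA, against 132, 136 and 146 in silwet. PEX4 had 125, 105 and 101 in SA, against 99.6, 116 and 117 in silwet, and AT4G26410 had 287, 310 and 247 in SA, against 315, 281 and 244 in silwet. In none of the 4 did arrays 28, 30 and 20 stand apart from arrays 29, 19 and 21, and 0 were called without arrays 20 and 29.

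Gene families taken by symbol are given as counts without arrays 20 and 29, to be read against the 5.93% of all tested probe sets called higher and the 9.26% called lower there. Of 24 UDP-glycosyltransferase genes tested, 4 were called higher and 1 lower, and the family's median log2 difference without replicate 2 was 0.05, against -0.11 over all tested probe sets. Of 5 WRKY genes 2 were called higher, with a family median of 0.48. These 2 were WRKY53 and WRKY6, already counted on the SA response list. With quantile normalization 1 of the 5 was called higher, against 836 of 13648. Of 27 vesicle traffic genes 2 were called higher and 1 lower, with a median of 0.31, and 20 of 27 were lower on array 29 than on array 20, against 42.1% of all tested probe sets.

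Of 12 expansin and xyloglucan enzyme genes 1 was called higher and 1 lower, with a median of -0.61. Of 14 serine carboxypeptidase-like genes 1 was called lower, with a median of -0.49, and 12 of 14 were higher on array 29 than on array 20, against 57.9% of all tested probe sets. Of 13 trichome birefringence-like genes 3 were called lower, with a median of -0.45. Of 8 nuclear photosystem and light harvesting genes 1 was called lower, with a median of -0.31, and 7 of 8 were higher on array 29. With median centring 0 of the 14 serine carboxypeptidase-like, 1 of the 13 trichome birefringence-like and 0 of the 8 nuclear photosystem genes were called lower. Fewer probe sets were called lower in all under that scaling, 657 of the 13648 tested, against 1264 on the deposited scale. Of 9 glutathione transferase genes 1 was called lower, of 18 ubiquitin-conjugating and autophagy genes 1 was called higher, and 0 of 4 jacalin-related lectin genes and 0 of 65 chloroplast genome genes were called. These families were chosen after values had been seen, and their counts describe these arrays only.

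The lowest serials differed in expression from the middle and from the highest serials, and no difference was called between those later blocks. Over all 18 arrays, with treatment in the model, limma's F-test called 1739 probe sets (12.7%). Set against the lowest serials, the middle serials had 904 probe sets called higher (6.62%) and 818 lower (5.99%), and the highest serials had 1135 higher (8.32%) and 1091 lower (7.99%). Between the highest and the middle serials limma called 0 (0%), with 537 at an unadjusted p under 0.05.

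The number of block calls changed with the arrays left out. Without arrays 20, 28 and 30, an alternative added after the values had been seen and chosen by them, the F-test called 157 (1.15%). Limma then called 158 (1.16%) between the middle and the lowest serials, 250 (1.83%) between the highest and the lowest, and 0 between the highest and the middle, with 799 at an unadjusted p under 0.05. Those arrays had high SA response genes, but leaving them out also leaves fewer arrays in the lowest serials. The effect of fewer arrays and that of their content cannot be told apart here. The F-test called 688 without array 20 and 2692 without array 29. Without both arrays it called 990, and limma then called 1299 (9.52%) between the middle and the lowest serials, 1665 (12.2%) between the highest and the lowest, and 0 between the highest and the middle, with 534 at an unadjusted p under 0.05. Without replicate 2 of every group the F-test called 121, and without replicate 3 it called 137. In 150 probe sets (1.1%) all 6 arrays of the lowest serials lay above the other 12, and in 144 (1.06%) below. The middle serials lay apart from the rest in 1 probe set above and 2 below, and the highest serials in 4 above and 1 below.

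AT5G51440 lay above the other 12 on all 6 arrays, whatever the treatment. It had signals of 238, 213 and 273 on SA arrays 28, 29 and 30, against 238, 219 and 156 on silwet arrays 19, 20 and 21, and 14 to 65.9 on the other 12 arrays (limma F-test over blocks, adjusted p = 6.67e-06). Its SA log2 difference within the 6 arrays was 0.25 (SE 0.24). AT3G16530 likewise exceeded the 211 that was its highest value elsewhere on every one of the 6 (adjusted p = 1.64e-05), and so did BIK1 against 123 (adjusted p = 0.000155). These genes were named with earlier results of these data known, so their p-values are no separate support for a block difference.

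**Figure D5:**
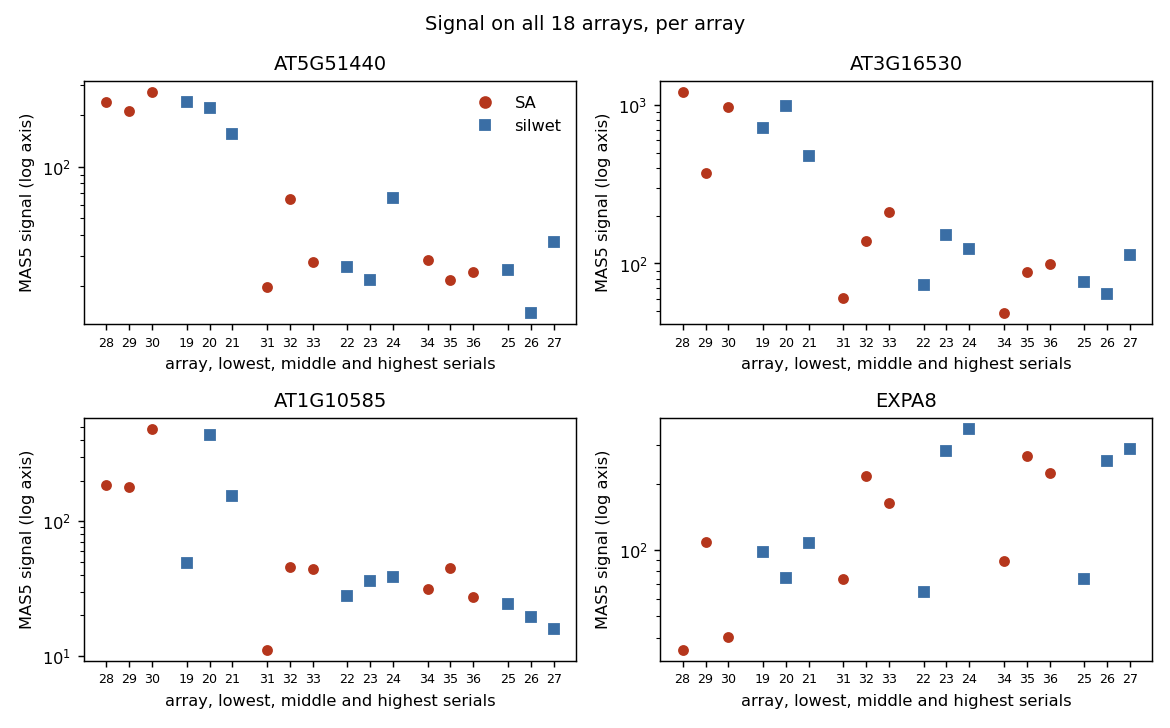
MAS5 signal (log axis) of 4 genes on all 18 arrays, in serial blocks from lowest to highest and with SA (red circles) left of silwet (blue squares) in each block. AT5G51440, AT3G16530 and AT1G10585 are higher in the lowest serials than in the other 12 arrays, and EXPA8 overlaps between blocks.

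The SA response genes were low in both later blocks. UGT76B1 read 10.3 to 76.8 there, with SA minus silwet log2 differences of 0.01 in the middle and -0.35 in the highest serials. GRX480 differed by -0.30 and -0.22, and AT5G03350 by -0.61 and -0.16. Limma called 0 probe sets for SA in the middle serials and 0 in the highest (0% each), with 56 and 337 at an unadjusted p under 0.05.

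Whether the SA effect of the lowest serials differed from the mean of the later blocks was tested in the same 6-group model. On all 18 arrays limma called 0 (0%), with 142 at an unadjusted p under 0.05. It called 0 without array 20, where 1229 had an unadjusted p under 0.05, and 0 without array 29, where 1750 did. Without both arrays it called 1357, of which 589 (4.32%) had the higher SA effect in the lowest serials and 768 (5.63%) the lower, or 2343 with the replicate block. These calls carry the same dependence on how the arrays were chosen. UGT76B1 then differed by 4.82 (adjusted p = 0.00433), GRX480 by 2.49 (adjusted p = 0.00795), AT3G15570 by -2.38 (adjusted p = 0.00315) and WRKY6 by 0.96 (adjusted p = 0.111), the last of which did not pass. UGT76B1 and AT3G15570 were among the genes furthest apart without arrays 20 and 29. GRX480 and WRKY6 ran against their labels on those arrays. The adjusted p-values of these genes are therefore no separate support.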

How the data were processed

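Total RNA was hybridised to Affymetrix ATH1 arrays. The authors deposited signal intensity in 1 table. The submitters' processing notes name MAS5, with no version or settings. Values are linear, and the 2% trimmed mean was 100.01 in each column, so the deposited intensity was taken as scaled, which hides any change in total RNA. All columns belong to a sample.

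Control probe sets (64) were dropped, and log2 was used without a pseudocount. Probe sets with a mean log2 signal over 18 arrays at or above the 40th percentile (4.31, a signal of 19.9) were tested, 13648 in all. In GEO's platform annotation 13513 probe sets have 1 gene, 503 have several and 8730 have none. Of the first kind 13436 matched the TAIR10.1 gene table, from which symbols were taken, and only these probe sets were named.

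The test of SA against silwet was run in limma 3.58.1 under R 4.3.3 (eBayes, intensity trend), and probe sets with a Benjamini-Hochberg adjusted p under 0.05 were called. The 6 arrays alone entered the main comparison, without a replicate term. A 6-group model and an F-test over serial blocks with treatment used 18 arrays. Of 161 genes on the lists, 35 have a single-gene probe set. None of the touch, flower and seed lists had one, and the root list and PDF1.2 lay below the filter. Named were the tested SA response genes, up to 4 of each other list by smallest p, and the 8 highest and 8 lowest differences among genes whose groups did not overlap. To these came the 10 highest and 10 lowest without replicate 2, and 8 chosen genes. Members, lists and rules were chosen with earlier results of these data known. Alternatives were quantile normalization, a pseudocount of 16, no filter, a 60th percentile filter, median centring, no trend, the replicate block and arrays left out, the last partly chosen by their values. The code was tested on simulated data.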

Additional observations from a re-analysis of the deposited data

How the results depend on the processing

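Of 23 alternatives for SA against silwet, limma called a probe set in 5. It called 1 with no intensity trend, and with arrays 20 and 29 left out of the 6-group model it called 2074, or 1717 with median centring, 1950 with quantile normalization and 3017 with the replicate block. Leaving out single arrays or replicate numbers gave 0 calls. In the 6 arrays as labelled, deviations of same-numbered arrays from their group means correlated at -0.000163, -0.70 and 0.12, with arrays 20 and 29 giving the second value. Each of these group means includes array 20 or 29, so the 3 values cannot show whether the replicate numbers pair the samples. In the middle serials such deviations correlated at 0.45, 0.03 and 0.35, and in the highest at 0.66, 0.32 and 0.64, so there the numbers carry a shared part. With the replicate block the count was 0 for SA, with 25 at an unadjusted p under 0.05, 2261 for the serial blocks and 0 for the difference in SA effect. For the serial blocks, against 1739, limma called 688 without array 20, 2692 without array 29, 990 without both (1030 with the replicate block), 157 without arrays 20, 28 and 30, and 121 to 1692 without a replicate number. For the difference in SA effect it called 0 to 789 without a replicate number, the highest without replicate 2, and 1357 without arrays 20 and 29 (2343 with the replicate block). The cause was not tested. Detection calls were not used, and 33.6% to 38.8% of probe sets per array had a signal under 16, where differences are the least precise.

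Of 1551 comparisons of a named gene with an alternative, 132 changed sign, and 126 of these came from settings that leave out arrays. Lowest and highest log2 differences for genes that changed sign so were -0.45 to 4.65 (UGT76B1), -0.13 to 2.23 (GRX480), -0.23 to 1.66 (WRKY53), -0.20 to 0.99 (WRKY6), -0.32 to 3.39 (AT5G03350), -0.10 to 0.77 (GSTU25), -0.19 to 0.91 (EFR), -0.07 to 0.67 (BIK1), -0.00 to 0.35 (CRT1b), -1.11 to 0.70 (THI2.1), -0.31 to 0.03 (RCA), -0.22 to 0.06 (LHCB4.1), -0.60 to 0.14 (PRK), -0.66 to 0.17 (GI), -0.59 to 0.05 (COR15B), -0.48 to 0.09 (LTI30), -0.36 to 0.10 (COR47), -0.45 to 0.20 (DI21), -0.55 to 0.02 (EXPA4), -0.26 to 1.90 (GH3.3), -0.19 to 0.01 (AT2G28390), -0.04 to 0.14 (AT4G34270), -0.09 to 0.10 (AT4G26410), -0.18 to 0.09 (PEX4), -0.96 to 4.14 (AT3G28510), -2.34 to 4.02 (AT3G13610), -0.37 to 3.02 (AT5G44570), -0.05 to 2.94 (AT5G46230), -0.56 to 2.71 (CXE20), -0.22 to 2.56 (AT4G22530), -0.17 to 2.54 (AT1G02360), -0.41 to 2.51 (AT1G08050), -3.59 to 0.33 (AT1G60590), -3.10 to 0.22 (AT3G17640), -2.92 to 0.27 (AT3G28270), -2.90 to 0.25 (AT1G68600), -2.81 to 0.27 (AT4G25780), -2.40 to 0.18 (AT3G15720), -0.32 to 0.89 (AT3G16530), -0.06 to 0.90 (JAL34), -0.31 to 1.85 (AT3G01830), -0.05 to 1.77 (AT1G10585), -0.40 to 1.07 (AT2G25735), -0.02 to 0.40 (AT5G51440) and -0.16 to 1.23 (AT1G52200).

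Under other settings THI2.1 gave 0.05 with a pseudocount of 16 and 0.03 with quantile normalization or median centring. PEX4 gave 0.00 with quantile normalization and 0.05 with median centring, and AT4G26410 gave -0.01 with quantile normalization. In the 6-group model AT4G34270 gave -0.00 and PEX4 0.03 without array 20. Without array 29 DI21 gave 0.10, AT4G26410 -0.07 and PEX4 0.03. Without both, with or without the replicate block, DI21 gave 0.05, or 0.20 with median centring and 0.16 with quantile normalization. There AT4G26410 gave -0.06, or -0.09 with quantile normalization, and PEX4 0.06, or 0.21 with median centring and 0.09 with quantile normalization. None of these values was called.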
